A study of Mus musculus with 16 samples.

Results

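The mitochondrial ribosome is built from proteins that are all encoded in the nucleus and from RNAs encoded in mitochondrial DNA. It translates the few proteins that the mitochondrial genome encodes, which are subunits of the respiratory chain and of ATP synthase. Its proteins belong to a large subunit, which joins amino acids, or to a small subunit, which reads the mRNA, and part of them have homologues in bacterial ribosomes while the others occur in mitochondria only. In beta cells, the oxidation of glucose-derived fuel in mitochondria links glucose to insulin release. The genes described here were chosen by name, as all rows of the authors' deposited results whose symbol is Mrpl or Mrps followed by a number and, where present, a letter from a to c. Of 10208 rows, 74 met this rule, 47 for the large subunit (Mrpl) and 27 for the small subunit (Mrps), and no name was repeated. GENCODE release M21 holds 78 protein-coding genes with such names. Of the other 4, Mrpl58 was present under the older symbol Ict1, and Mrpl53, Mrps6 and Mrps34 were not analysed here.

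Pancreatic islets of mice were compared between 7 samples labelled Cre+T and 9 samples labelled Cre-T, both taken 6 days after tamoxifen, which was given to delete Ins2. The labels give the same genotype to both groups: Ins1-/-, a null allele of one insulin gene, Ins2f/f, a floxed allele of the other, Pdx1CreERT, a tamoxifen-activated recombinase under Pdx1 regulatory sequence, and mTmG, a fluorescent reporter of recombination, on a mixed background that is mostly C57Bl/6. Since Pdx1CreERT is listed for both groups while the group names differ in Cre, the labels do not settle whether Cre-T mice had the recombinase. They leave unsaid how old the mice were and whether samples came from separate animals, so p-values cover only the spread among these samples, which may be partly technical. The values are the authors' limma results, with 1 row per gene and none per sample, so neither the value of each sample nor the overlap of the groups can be shown, and the depth of each sample is unknown.

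Fold changes are deposited with no stated direction. They are given here as Cre+T over Cre-T, since the authors' deposited table has Ins2 at a log2 fold change of -0.47 ± 0.17 (limma adjusted p = 0.0409) and Esr1, whose ligand-binding domain is part of CreERT, at 9.30 ± 0.39. On this reading the groups differed in mRNA of the recombinase as well as in Ins2, and the effects of these cannot be told apart. Errors are standard errors (SE), the deposited fold change divided by its t. Ins2 also had the highest mean of all rows in the authors' deposited table, 16.3 log2 CPM (counts scaled to library size), and Ins2 marks the beta cells that the labelled tissue holds. Of 8 measured beta-cell markers, Ins2 included, 5 were higher and 1 lower at a limma adjusted p under 0.05 in the authors' deposited table. All 12 measured acinar markers were higher in Cre+T, by 1.40 to 3.70 log2 units, and so were 4 of 8 leukocyte markers and 3 of 4 red blood cell markers in the authors' deposited table. No level per sample exists for these markers, and their part in the differences below was not tested. In bulk islets, fewer cells of a type and less RNA per cell cannot be told apart.

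Mitochondrial ribosomal protein genes differed little between the groups, and those that passed the test were nearly all lower in Cre+T. At a limma adjusted p under 0.05, 18 of the 74 genes were lower and 1 was higher in the authors' deposited table. This is 24.3% lower, where 20.1% of all rows were lower, and 1.35% higher, where 17.6% of all rows were higher in the authors' deposited table. In either direction 25.7% of the members passed, against 37.6% of all rows. The median log2 fold change of the members was -0.09, with the middle 50% between -0.19 and 0.00, beside a median of 0.00 and a middle 50% of -0.21 to 0.20 over all rows of the authors' deposited table. Among the 6162 rows within the members' range of mean expression, 23.1% were lower and 14.2% higher, with -0.05 as the median in the authors' deposited table. Of the 74, 54 had a negative fold change, or 73.0%, beside 50.5% of all rows. Only Mrpl34 was past 0.5 log2 units, 1.35% of the members beside 17.4% of all rows, and the 95% interval lay wholly within 0.5 units of 0 for 65 members.

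These counts depended on scaling. When fold changes were shifted by 0.14 log2 units to make the summed expression of both groups equal, 43 members were lower and none was higher, beside 38.5% lower and 8.42% higher over all rows. The sum ran over the estimated group means of all rows on the linear scale, so abundant genes weigh most in it. These include Ins2, lower in Cre+T, and acinar markers, higher in Cre+T, and the part of single genes in the shift was not tested. With the median cytosolic ribosomal protein gene set to 0, 28 members were lower and none was higher, beside 27.6% lower and 12.2% higher over all rows. All 18 genes that were lower as deposited were lower under both. Both settings subtract a positive constant, 0.14 or 0.07 log2 units, from every fold change and keep its error. Negative fold changes could therefore only move further from 0, and the 18 calls staying is no separate support for them. Values below are on the authors' scaling unless another is named.

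**Figure D1:**
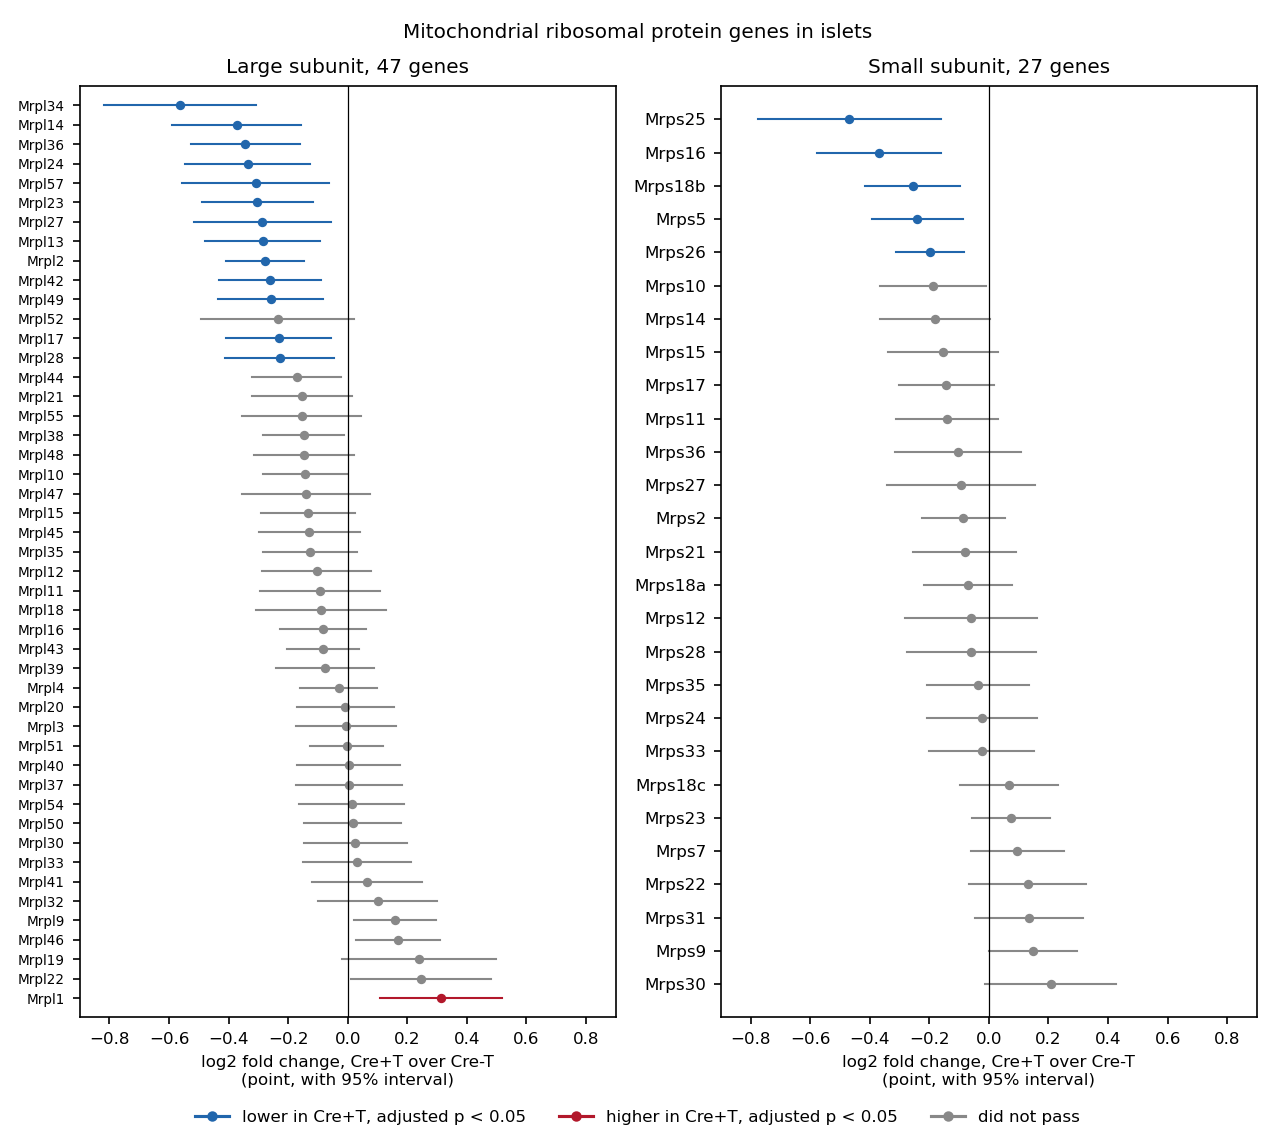
Log2 fold change of each mitochondrial ribosomal protein gene, Cre+T over Cre-T, with its 95% interval, for the 47 genes of the large subunit (left) and the 27 of the small subunit (right), ordered by fold change. Blue genes were lower and red genes higher at a limma adjusted p under 0.05, and most points lie left of 0 in both panels.

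Among large-subunit genes 13 were lower, 1 was higher and 33 missed the threshold in the authors' deposited table, and the median log2 fold change was -0.13. Mrpl34, which encodes the homologue of a small bacterial protein (L34), had the largest fall of all members in the authors' deposited table, to a log2 fold change of -0.56 ± 0.12 (limma adjusted p = 0.00323). Its estimated mean was 3.30 log2 CPM in Cre+T islets and 3.87 log2 CPM in Cre-T islets, which puts Cre+T at 0.677 of the Cre-T level. These group means are estimates, computed from the authors' overall mean and fold change with groups of 7 and 9 samples. The gene (ENSMUSG00000034880.6) is annotated by GENCODE M21 at chr8:71464959-71465747 of GRCm38, on the plus strand.

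Mrpl2, Mrpl36 and Mrpl14, all homologues of bacterial proteins, had the next smallest p-values of the large subunit. Mrpl2, a core protein beside the peptidyl transferase centre, was at -0.28 ± 0.06 (limma adjusted p = 0.00406) by the authors' deposited table, with estimated means of 4.77 log2 CPM in Cre+T and 5.05 log2 CPM in Cre-T. Mrpl36, the homologue of bacterial L36, was at -0.34 ± 0.09 (limma adjusted p = 0.00709) as listed in the authors' deposited table, with estimated means of 4.95 log2 CPM in Cre+T and 5.30 log2 CPM in Cre-T. Mrpl14, which faces the small subunit, was at -0.37 ± 0.10 (limma adjusted p = 0.0111) by the authors' deposited table, with estimated means of 3.36 log2 CPM in Cre+T and 3.73 log2 CPM in Cre-T. The Cre+T level was thus 0.825 of the Cre-T level for Mrpl2, 0.788 for Mrpl36 and 0.773 for Mrpl14, so all 3 falls were smaller than that of Mrpl34.

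Mrpl23 and Mrpl24, both beside the tunnel through which the new protein leaves, were at -0.30 ± 0.09 (limma adjusted p = 0.0151) and -0.34 ± 0.10 (limma adjusted p = 0.0157) as listed in the authors' deposited table. Mrpl27, whose bacterial homologue reaches towards the catalytic site, was at -0.29 ± 0.11 and Mrpl28 at -0.23 ± 0.09, with limma adjusted p of 0.0479 and 0.0474 in the authors' deposited table. They were the members closest to the threshold among those past it, with Mrpl57, a protein found in mitochondria only, at -0.31 ± 0.12 and 0.0467. Mrpl13 (-0.29 ± 0.09), Mrpl17 (-0.23 ± 0.08), Mrpl42 (-0.26 ± 0.08) and Mrpl49 (-0.26 ± 0.08) made up the rest of the 13, with limma adjusted p from 0.0203 to 0.0383 in the authors' deposited table.

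Mrpl1 was the 1 member that rose. Its protein forms the mobile L1 stalk, where tRNA leaves the ribosome. The authors' deposited table has Mrpl1 at 0.31 ± 0.10 with a limma adjusted p of 0.0196, which gives estimated means of 5.17 log2 CPM in Cre+T and 4.86 log2 CPM in Cre-T. This call was lost under both other scalings, with adjusted p, recomputed from limma's errors, of 0.155 when summed expression was equal and 0.0518 with the median cytosolic ribosomal protein gene at 0. Both scalings move every fold change down, so that of Mrpl1 could only become smaller. The proteins of the other stalk, which recruits translation factors, did not pass: Mrpl10 was at -0.14 ± 0.07, Mrpl11 at -0.09 ± 0.10 and Mrpl12, which also binds mitochondrial RNA polymerase in human cells, at -0.10 ± 0.09 in the authors' deposited table. Just outside the threshold stood Mrpl46 (0.17 ± 0.07, limma adjusted p = 0.0551), Mrpl9 (0.16 ± 0.06, 0.0638) and Mrpl44 (-0.17 ± 0.07, 0.0664) by the authors' deposited table. The largest differences that did not pass were Mrpl22 (0.25 ± 0.11), Mrpl19 (0.24 ± 0.12) and Mrpl52 (-0.24 ± 0.12) in the authors' deposited table. All 33 large-subunit genes that did not pass lay between -0.24 and 0.25.

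Of small-subunit genes, 5 were lower, none higher and 22 did not pass at a limma adjusted p under 0.05 in the authors' deposited table. At an unadjusted limma p under 0.05 there were 6 of 27, beside 20 of 47 large-subunit genes and 4908 of all 10208 rows. The median log2 fold change of the small-subunit genes was -0.08. Mrps16, whose mutation causes a mitochondrial disease in humans, had the smallest p of the subunit, where the authors' deposited table gives -0.37 ± 0.10 with limma adjusted p = 0.00971. Its estimated means were 4.30 log2 CPM in Cre+T and 4.67 log2 CPM in Cre-T. Mrps25, found in mitochondria only, had the largest fall of the subunit and the widest error of all members, where the authors' deposited table gives -0.47 ± 0.15 with limma adjusted p = 0.0202. Its estimated means were 2.64 log2 CPM in Cre+T and 3.11 log2 CPM in Cre-T, and its overall mean of 2.90 log2 CPM was the lowest of the 74.

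Mrps26, another protein specific to mitochondria, was at -0.20 ± 0.05 (limma adjusted p = 0.0108) as listed in the authors' deposited table, the smallest fall and the smallest error among the genes that passed. Mrps5, the homologue of bacterial S5 at the entry of the mRNA path, was at -0.24 ± 0.07 (limma adjusted p = 0.0169) by the authors' deposited table. The authors' deposited table has Mrps12, a protein of the decoding site, at -0.06 ± 0.11 (limma adjusted p = 0.672). The small-subunit genes that did not pass ran from -0.19 (Mrps10) to 0.21 (Mrps30) in the authors' deposited table.

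The 3 paralogues of bacterial S18 had 1 call among them. The authors' deposited table has Mrps18b at -0.26 ± 0.08 (limma adjusted p = 0.0157), with estimated means of 4.90 log2 CPM in Cre+T and 5.16 log2 CPM in Cre-T. Mrps18a was at -0.07 ± 0.07 (limma adjusted p = 0.445) and Mrps18c at 0.07 ± 0.08 (limma adjusted p = 0.510) as listed in the authors' deposited table. The sign of Mrps18c turned to -0.08 when summed expression was equal, and Mrps18a then passed at -0.21. Differences between the paralogues were not tested.

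Large and small subunits had 29.8% and 18.5% of their genes past the threshold, both below the 37.6% over all rows, and medians of -0.13 and -0.08. The difference between the subunits was not tested. Structures of the mammalian ribosome place Mrps18a and Mrps30 in the large subunit, and Mrps36 has since been assigned to another mitochondrial complex. With the genes sorted that way, 13 of 49 large-subunit genes were lower with a median of -0.10, and 5 of 24 small-subunit genes were lower with a median of -0.08. Sorted by origin, with Mrps18c counted as the homologue of bacterial S18 and its paralogues Mrps18a and Mrps18b as mitochondria-specific, 12 of 44 homologues of bacterial proteins were lower, 1 was higher and the median was -0.12, while 6 of 30 mitochondria-specific members were lower, none was higher and the median was -0.08 in the authors' deposited table. Within the large subunit, homologues of bacterial proteins were lower in 10 of 29 and mitochondria-specific ones in 3 of 18 genes in the authors' deposited table. Within the small subunit it was 2 of 15 and 3 of 12. These shares of lower genes were 34.5%, 16.7%, 13.3% and 25%, beside 20.1% of all rows, and differences by origin were not tested.

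**Figure D2:**
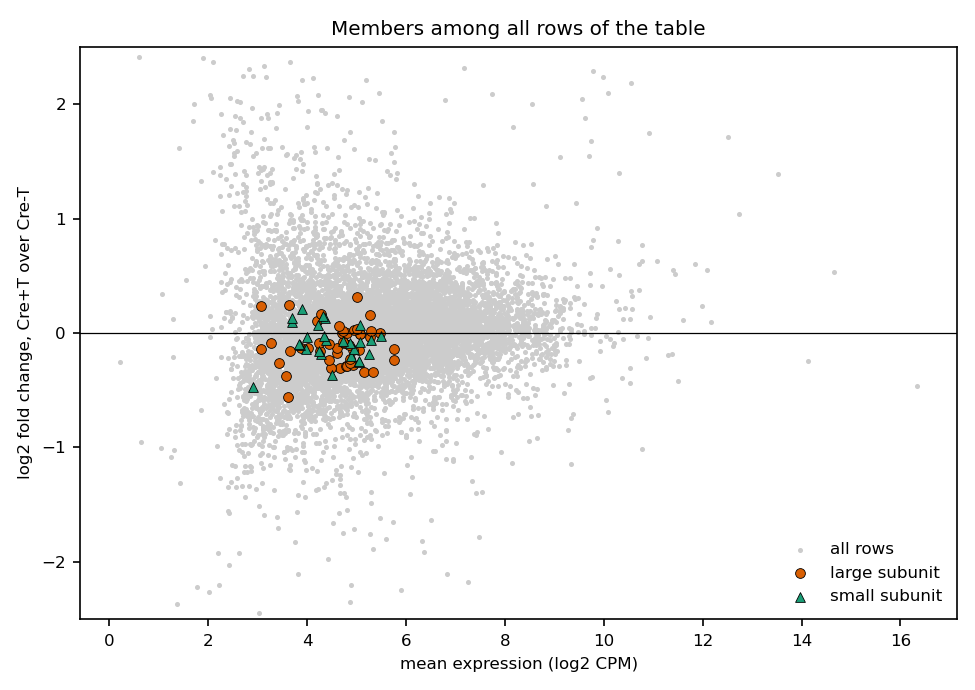
Log2 fold change, Cre+T over Cre-T, against mean expression in log2 CPM, for all rows (grey) and for members of the large (circles) and small subunit (triangles). The members lie between 2.90 and 5.77 log2 CPM and close to 0, and 55 rows past 2.5 log2 units are not drawn.

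The members were expressed at similar and moderate levels. Mean expression in the authors' deposited table lay between 2.90 and 5.77 log2 CPM, its median was 4.69 for the members and 5.21 for all rows, and 10 of the 74 reached the median of all rows. By mean log2 CPM in the authors' deposited table, Mrpl10 (5.77), Mrpl17 (5.76), Mrps33 (5.49), Mrpl51 (5.47) and Mrpl24 (5.33) stood highest. Mrps25 (2.90), Mrpl19 (3.07), Mrpl47 (3.07), Mrpl18 (3.27) and Mrpl49 (3.43) stood lowest on that scale. Per kilobase of the principal transcript, Mrps21 stood highest at 6.11 log2 CPM per kilobase, followed by Mrpl52 at 5.70 and Mrps12 at 5.48. Mrps25 stood lowest at 0.30 log2 CPM per kilobase, followed by Mrpl19 at 0.74 and Mrpl47 at 1.32. The 3 lowest have long annotated transcripts of 6073, 5000 and 3364 bases, and which transcripts the islets use was not tested. Mrpl33 did not match a gene of the annotation by its ID and has no value per kilobase. Across the 74 members, fold change and mean expression had a Spearman rho of -0.02. Across the 73 with an annotated transcript, rho was -0.02 with length and -0.16 with GC content, and all these points share the same libraries.

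Many members start beside another gene that is read in the opposite direction. In GENCODE release M21, 32 of the 74 members, or 43.2%, had a protein-coding gene on the other strand whose start lay within 1000 bases, beside 1650 of 10157 protein-coding rows, or 16.2%. This held for 24 large-subunit and 8 small-subunit members. One such pair consists of members only: the starts of Mrpl46 and Mrps11 are 412 bases apart on chromosome 7, and Mrpl46 was at 0.17 ± 0.07 and Mrps11 at -0.14 ± 0.08 in the authors' deposited table. Neither passed, and their difference was not tested. For 23 members the nearest such neighbour was no member and had a row, and 8 of these neighbours were lower and 3 higher in the authors' deposited table. Over all rows, 20.1% were lower and 17.6% higher. Of the 23 pairs, 12 had the same sign, and the Spearman rho between the fold changes of member and neighbour was -0.06.

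The pairs differed in both directions. Mrps18b fell while Ppp1r10, which encodes a regulatory subunit of protein phosphatase 1 and starts 45 bases away, rose (0.31 ± 0.09, limma adjusted p = 0.0164) by the authors' deposited table. Mrpl49 fell while Fau, which encodes a fusion of a ubiquitin-like protein with a cytosolic ribosomal protein and starts 59 bases away, was higher at 0.16 ± 0.06 (limma adjusted p = 0.0494) as listed in the authors' deposited table. Mrpl2 and its neighbour Klc4, a kinesin light chain gene, both fell, and the authors' deposited table has Klc4 at -0.42 ± 0.10. Mrps5 and the zinc finger gene Zfp661 (-0.98 ± 0.18) also fell together in the authors' deposited table. Mrpl43 was at -0.08 ± 0.06 while Peo1, which encodes the mitochondrial DNA helicase Twinkle, was lower at -0.69 ± 0.12 (limma adjusted p = 0.000972) by the authors' deposited table. Mrps12 was at -0.06 ± 0.11 while Sars2, the mitochondrial seryl-tRNA synthetase gene, was lower at -0.49 ± 0.12 (limma adjusted p = 0.00588) as listed in the authors' deposited table. No label states that the libraries kept strand, so where the transcripts of such a pair overlap, their reads may not be told apart.

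**Figure D3:**
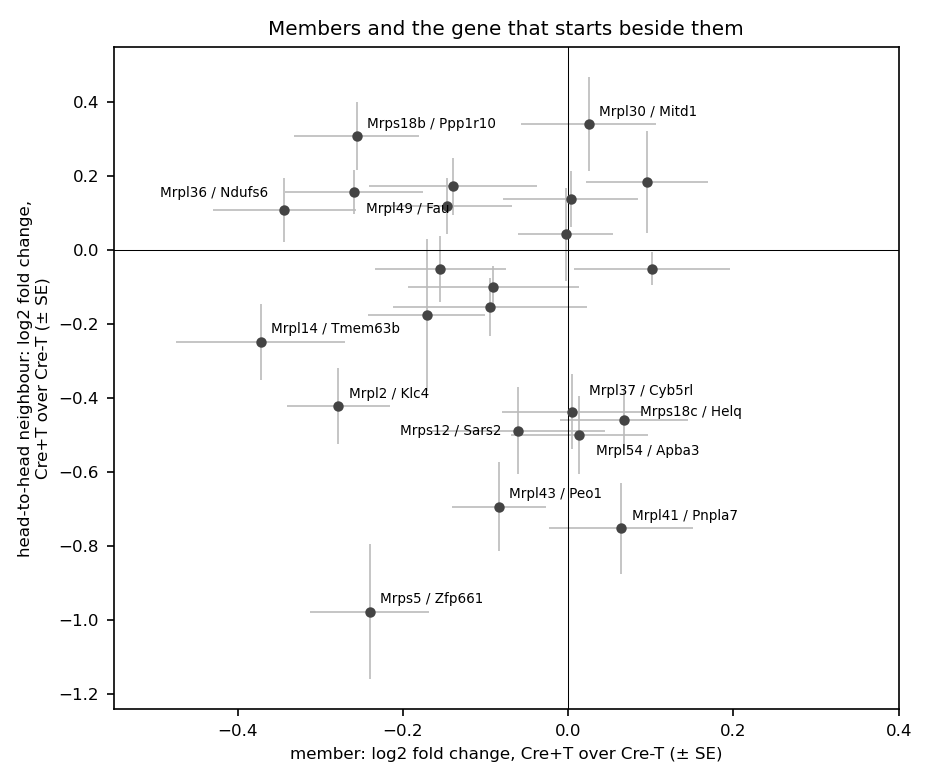
Log2 fold change of 23 members (horizontal) and of the nearest gene that starts within 1000 bases on the other strand (vertical), Cre+T over Cre-T, with standard errors. Points lie in all 4 quadrants, with Mrps18b and Ppp1r10 at upper left and Mrps5 and Zfp661 at lower left.

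Promoters of the members were searched for elements of factors known to act on nuclear genes of mitochondrial function. RefSeq windows on GRCm38.p6, from 250 bases before to 50 after a start site, matched 66 of the 74 members and 7798 rows in all. The RefSeq start nearest to the GENCODE start of the gene was used, however far away. It lay 7979 bases off for Mrps24, 3185 for Mrpl35 and 2496 for Mrpl36, and each of these windows is among those with the YY1 element below. The element GCGCANGCG of nuclear respiratory factor 1, on either strand, was in 16 of the 66 windows (24.2%) and in 15.2% of all 7798. The ETS element CCGGAAG, bound by GABPA, was in 22 (33.3%) against 19.3%, and the YY1 element AANATGGCG in 10 (15.2%) against 5.94%. The E-box CACGTG was in 5 (7.58%) against 10.7%, and the letters TGATGCAA of a CEBP-ATF element were in no member window and in 0.577% of all. Members that were lower held the nuclear respiratory factor 1 element in 5 of 17 windows and the others in 11 of 49. For the ETS element it was 6 of 17 and 16 of 49, and for the YY1 element 3 of 17 and 7 of 49. The median fold change was -0.12 with and -0.09 without the element of nuclear respiratory factor 1, and -0.08 with and -0.13 without the ETS element.

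The windows of 4 members are given as examples, 5′ to 3′ on the gene's strand, with the elements in capitals. They were picked with their fold changes known, and none is from a member that passed as higher. The window of Mrpl1, the 1 member that did, held none of the elements searched for. Its RefSeq start lay 622 bases from the GENCODE start of Mrpl1, which the window does not cover. Mrpl34 (chr8:71464676-71464975, plus strand) had the largest fall, Mrps26 (chr2:130563507-130563806, plus strand) and Mrps18b (chr17:35916391-35916690, minus strand) also fell, and Mrpl22 (chr11:58171414-58171713, plus strand) was at 0.25 ± 0.11 and missed the threshold in the authors' deposited table. Mrpl34 holds the ETS element, and the other 3 hold it together with the element of nuclear respiratory factor 1. In Mrps26, 2 copies of that second element overlap.
Mrpl34: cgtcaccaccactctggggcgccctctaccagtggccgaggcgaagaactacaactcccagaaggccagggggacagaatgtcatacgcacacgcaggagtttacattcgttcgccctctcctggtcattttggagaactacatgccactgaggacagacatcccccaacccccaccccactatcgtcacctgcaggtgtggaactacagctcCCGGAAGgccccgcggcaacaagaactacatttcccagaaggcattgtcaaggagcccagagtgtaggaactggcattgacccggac
Mrps26: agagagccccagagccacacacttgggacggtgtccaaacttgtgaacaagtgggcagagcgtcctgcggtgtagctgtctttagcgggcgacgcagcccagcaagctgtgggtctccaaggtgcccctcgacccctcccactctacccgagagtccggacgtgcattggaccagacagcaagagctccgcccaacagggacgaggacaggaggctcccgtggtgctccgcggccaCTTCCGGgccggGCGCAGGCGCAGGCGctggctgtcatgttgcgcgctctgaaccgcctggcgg
Mrps18b: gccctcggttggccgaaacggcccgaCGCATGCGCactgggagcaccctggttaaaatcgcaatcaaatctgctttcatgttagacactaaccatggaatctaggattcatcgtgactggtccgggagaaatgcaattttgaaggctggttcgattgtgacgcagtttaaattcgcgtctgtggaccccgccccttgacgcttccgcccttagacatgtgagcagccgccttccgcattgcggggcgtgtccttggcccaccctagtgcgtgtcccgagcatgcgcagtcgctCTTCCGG
Mrpl22: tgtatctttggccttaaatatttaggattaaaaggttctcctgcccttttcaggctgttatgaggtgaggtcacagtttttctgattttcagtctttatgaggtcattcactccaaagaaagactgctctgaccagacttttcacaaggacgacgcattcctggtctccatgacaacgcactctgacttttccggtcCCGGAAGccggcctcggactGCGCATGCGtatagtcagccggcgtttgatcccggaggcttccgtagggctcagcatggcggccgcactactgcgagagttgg

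Of the factors themselves, Nrf1, which encodes nuclear respiratory factor 1, was lower at -0.60 ± 0.10 (limma adjusted p = 0.000557) and Gabpb1, a partner of GABPA, was higher at 0.38 ± 0.09 (limma adjusted p = 0.00434) by the authors' deposited table. They were the 2 of 8 measured regulators that passed, or 25%, beside 37.6% of all rows. Gabpa (0.01 ± 0.07) and Yy1 (0.11 ± 0.05) missed the threshold in the authors' deposited table. A match of letters in a window is a description and does not show binding.

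Assembly genes, tRNA synthetases and translation factors of mitochondria had 52.6%, 50% and 33.3% of their genes past the threshold, beside 25.7% of the ribosomal proteins and 37.6% of all rows. Their medians were further below 0 than that of the ribosomal proteins. Differences between the lists were not tested. Of 6 ribosomal proteins with other gene names, Dap3, a GTP-binding protein of the small subunit, was lower at -0.17 ± 0.06 (limma adjusted p = 0.0485) and 5 did not pass, the median being 0.02 in the authors' deposited table. Ribosome assembly and rRNA modification had 19 measured genes, of which 9 were lower and 1 was higher, the median being -0.22 in the authors' deposited table. The GTPase genes Noa1 (-0.49 ± 0.07), Gtpbp10 (-0.54 ± 0.08) and Mtg1 (-0.84 ± 0.13) and the rRNA methyltransferase gene Mrm1 (-0.60 ± 0.12) had the smallest p of this list, with limma adjusted p from 0.000349 to 0.00250 in the authors' deposited table. Rbfa, which encodes a factor of small-subunit maturation, was the 1 that rose, at 0.31 ± 0.10 in the authors' deposited table.

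Of 12 translation factors, 4 were lower and none was higher at a limma adjusted p under 0.05, with -0.21 as the median by the authors' deposited table. They were the elongation and recycling factor genes Gfm1 (-0.33 ± 0.09) and Gfm2 (-0.55 ± 0.11), the formyltransferase gene Mtfmt (-0.37 ± 0.12) and the initiation factor gene Mtif2 (-0.24 ± 0.08) in the authors' deposited table. Of 16 mitochondrial tRNA synthetases, 8 were lower and none was higher, the median being -0.22, among them Ears2 (-0.47 ± 0.07) and Nars2 (-0.73 ± 0.13) in the authors' deposited table. Among 13 genes of mitochondrial transcription and RNA, 2 were lower, Peo1 and Lrpprc (-0.28 ± 0.09), and 1 was higher, Trmt10c (0.20 ± 0.07), with -0.06 as the median by the authors' deposited table. These were 23.1% of that list, beside 37.6% of all rows.

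The 4 measured genes of mitochondrial DNA, whose mRNAs this ribosome translates, stood above 0. The mRNAs of mt-Nd1 (0.63 ± 0.20), mt-Nd2 (0.60 ± 0.20) and mt-Cytb (0.60 ± 0.22) were higher with limma adjusted p from 0.0216 to 0.0393, and mt-Co1 (0.51 ± 0.20, 0.0568) missed the threshold in the authors' deposited table. Of 91 nuclear genes with respiratory chain and ATP synthase names, which include assembly factors, 18 (19.8%) were higher and 7 (7.69%) lower, with 0.03 as the median by the authors' deposited table. Of 82 cytosolic ribosomal protein genes, 8 (9.76%) were higher and 2 (2.44%) lower, with 0.07 as the median by the authors' deposited table. Over all rows, 17.6% were higher and 20.1% lower. Negative fold changes were held by 73.0% of the mitochondrial and 22.0% of the cytosolic ribosomal protein genes, beside 50.5% of all rows. This contrast depended on scaling. With summed expression equal, 67 of the 74 mitochondrial and 62 of the 82 cytosolic genes were negative. The balance of these calls turned with scaling: with summed expression equal, 9 respiratory chain genes were higher and 29 lower, and 0 cytosolic ribosomal protein genes were higher and 15 lower. In that setting 8.42% of all rows were higher and 38.5% lower. With the median cytosolic ribosomal protein gene at 0, 12 respiratory chain genes were higher and 14 lower. For cytosolic ribosomal proteins it was 3 higher and 3 lower, beside 12.2% higher and 27.6% lower over all rows. With summed expression equal, the medians of the respiratory chain and of cytosolic ribosomal proteins turned to -0.11 and -0.08, beside -0.15 over all rows. That of the ribosomal proteins with other names turned to -0.12, and the mitochondrially encoded genes stayed above 0 at a median of 0.46 with no call left. Assembly genes, tRNA synthetases and translation factors had medians from -0.37 to -0.35 in that setting, beside -0.24 for the 74 members.

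**Figure D4:**
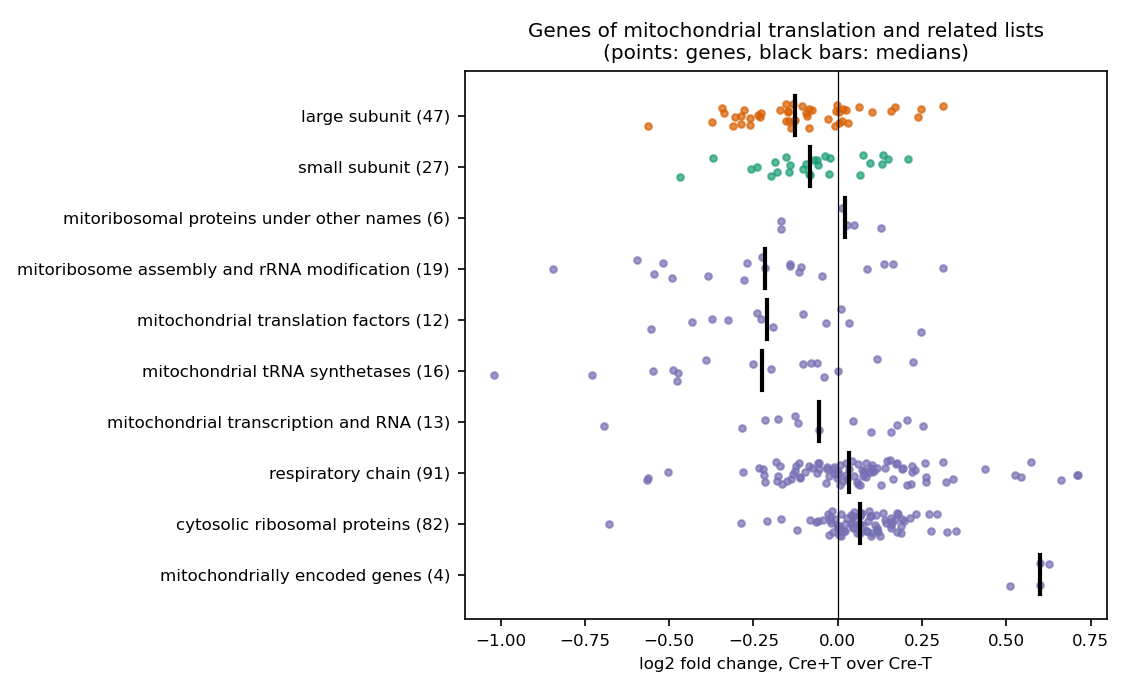
Log2 fold change, Cre+T over Cre-T, of single genes (points) and the median (bar) for both subunits and for related lists, with the number of genes in brackets. The medians of the subunits are -0.13 and -0.08, those of assembly factors, translation factors and tRNA synthetases lie from -0.22 to -0.21, and that of 4 mitochondrially encoded genes is 0.60.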

How the data were processed

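Total RNA of islets was sequenced as 150 bp pairs, at 20000000 pairs per sample per the labels, and tested with limma after alignment with TopHat2 to GRCm38, per the submitters' processing notes. How reads were counted, which low genes were dropped and which samples were fitted is not given in these sources. The authors deposited a log2 fold change, a mean on the log2 scale (read as log2 CPM because the results are named as voom output), a moderated t score and log-odds score, and a p-value with its adjusted p-value and q-value. The adjusted p equals a Benjamini-Hochberg adjustment computed over all 10208 rows. Standard errors are the fold change divided by t, and 95% intervals use 16.1 degrees of freedom, which the p-values imply. Group means assume that all 16 samples entered the fit.

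The main results are the authors' calls at an adjusted p under 0.05. Members and lists were chosen with earlier results of these data known. Genes were matched by ID to GENCODE release M21 (10190 rows). Levels per kilobase use the longest principal transcript, and the trend and the correlations with length and GC content use the longest transcript. The named genes are all members past the threshold, the S18 paralogues, the members beside the threshold, those largest in difference or extreme in level, and the genes of smallest p in each related list; a few others, among them stalk proteins and neighbours, were picked once their values were known. The alternatives tried were other thresholds and adjustments, a filter on mean expression, 2 scalings, other membership rules and removal of a quadratic trend. Calculations used Python 3.11.15 with pandas 2.3.3 and scipy 1.17.1 and were tested on simulated data.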

Additional observations from a re-analysis of the deposited data

How the results depend on the processing

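The counts depended on threshold and scaling. Members lower and higher in Cre+T were 4 and 0 at an adjusted p under 0.01 (large subunit 3 and 0, small subunit 1 lower). With Holm adjustment of limma's p they were 0 and 0 in both subunits. An unadjusted p under 0.05 was held by 26 members, beside 4908 of all 10208 rows. At an adjusted p under 0.1, 21 members were lower (large subunit 15, small subunit 6) and 4 were higher, all of the large subunit. Shares over all rows at 0.01 and 0.1 are not given here. Among the 10 members at or above the median mean expression, 2 large-subunit genes were lower, 0 were higher, no small-subunit gene passed (0), and the large-subunit median was -0.030. With summed expression equal, 43 were lower and 0 higher (large subunit 30 and 0, small subunit 13 lower), and the medians were -0.24 for all, -0.27 for large and -0.22 for small-subunit members, beside -0.15 over all rows. With the median cytosolic ribosomal protein gene at 0, 28 were lower and 0 higher (large subunit 20 and 0, small subunit 8 lower). Mrps18c turned to -0.075 with summed expression equal. With subunits by structure 18 members were lower and 1 was higher, and with the proteins of other names added 19 and 1. Removal of the trend with expression, length and GC content gave medians only, -0.11 for large and -0.11 for small-subunit members, beside -0.03 over all rows. Of single genes, Mrpl1 lost its call under both scalings and Mrps18a gained one under the first. Both scalings move every fold change down, so no scaling in the other direction was tried. The causes were not tested.

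No paired analysis was possible because the table holds no values per sample. For the same reason no fit without a replicate was run. Depth per sample is unknown, so the standard error, 0.05 to 0.15 log2 units for a member, is the one measure of precision.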
